A study of Homo sapiens with 6 samples.

Results

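The 9 genes described here are the bone morphogenetic protein (BMP) ligands BMP2, BMP4, BMP7 and BMP8B, the secreted BMP antagonists NOG and GREM1, and the transcription factors MSX1, MSX2 and ATOH8, which are known BMP targets. They were taken by symbol from a table of 19960 genes, and each symbol matched a single row. They were selected on their values in the contrast reported below and on results of these data already known, so their own differences are given as a description and nothing is inferred from how many of them moved. The cells were MKN28, an established line labelled as human gastric cancer and known to share its origin with the line MKN74, kept as stable cells with a plasmid-borne short hairpin RNA. The hairpin was either scrambled (shSCR, the control, 3 libraries) or directed against LTBP1 (shLTBP1, 3 libraries), and total RNA was sequenced from each. LTBP1, a latent TGF-beta binding protein of the extracellular matrix, stood at 977, 964 and 1011 normalized counts in shSCR and at 59.0, 66.7 and 49.0 in shLTBP1, 5.92% of the control mean (exact two-sided permutation p = 0.1, the smallest that 3 libraries against 3 allow). LTBP1 lies on chromosome 2, and the tested genes on each side of it had a median log2 fold change of -0.57. The log2 fold change of LTBP1 was -4.07, and -3.50 with that median subtracted. The part of that shift in the fall of LTBP1 was not tested. The labels do not say how many hairpin sequences were used, whether the stable cells are a clone or a pool, or whether the 3 libraries of a group come from separate cultures. The p-values below therefore rest on a spread among libraries that may be only technical.

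BMPs are secreted ligands of the TGF-beta superfamily. They bind pairs of type I and type II serine/threonine kinase receptors, which phosphorylate SMAD1, SMAD5 and SMAD9; these join SMAD4 in the nucleus and switch on targets such as the ID, MSX and ATOH8 genes. Noggin (NOG) and gremlin 1 (GREM1) bind BMP ligands outside the cell and keep them from their receptors, and in the gut such antagonists come largely from stromal cells around the crypts, while BMP signalling rises towards differentiated epithelium.

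Values are counts that the authors normalized with DESeq2, and their totals were 30479879 to 30941103 per library, which no longer show sequenced depth. Of 14 gastrointestinal epithelium markers, 7 had a mean of at least 10, and the summed level of the list, most of it keratins, was 308750 to 329860 in shSCR and 269640 to 294360 in shLTBP1. Of the 7, EPCAM (log2 fold change -1.12), KRT20 (-1.15), CDH1 (-0.34) and KRT18 (-0.25) fell, CDX2 (0.96) and KRT19 (0.22) rose and KRT8 (-0.15) did not pass. EPCAM lies on chromosome 2, and with the median of the tested genes on each side subtracted it was at -0.58 (limma adjusted p = 1.2e-05). On the same subtraction KRT19 was at 0.02 and did not pass (0.814), and KRT8 was at -0.25 and passed as lower (0.0195). KRT20, CDH1, KRT18 and CDX2 kept their calls. The intestinal gene CDX2 went from 1377 ± 100.2 to 2677 ± 262 (SD, n = 3 each), while CDX1, also intestinal, and the gastric genes CLDN18 and TFF2 were listed at 0 in every library. Markers of fibroblasts, a usual source of GREM1, summed to 1112 to 1349 in shSCR and 711 to 938 in shLTBP1; 2 of 12 had a mean of at least 10, COL1A1 and LUM, and THY1 and TWIST1 were listed at 0. LUM was listed at 0 in the 3 shSCR libraries and at 41.5, 52.0 and 36.6 in shLTBP1. Endothelial markers summed to at most 52.1 in any library, with CLDN5 at 0. Blood markers summed to 344 to 1322 in shSCR and 623 to 734 in shLTBP1, the highest value being shSCR replicate 3, where the globins HBA1 and HBB stood at 803 and 132. The macrophage gene CD68, which carries most of the other sums, rose from 366 ± 22.5 to 669 ± 56.7 (SD, n = 3 each). The part of these genes in the results below was not tested; leaving out shSCR replicate 3 changed the call of none of the 8 genes with a fit.

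The promoters of the genes that were higher in shLTBP1 are shown first, because the BMP branch acts on its targets through SMAD-binding DNA. The RefSeq table used here (GRCh38.p14, the assembly that hg38 names) held 6 of the 9 genes: BMP4, BMP8B, GREM1, MSX1, MSX2 and ATOH8. Each stretch below is the part of the 250 bases upstream of a RefSeq start that lies outside the gene's own exons in GENCODE release 29, written 5′ to 3′ on the strand of the gene. Capitals mark GGCGCC, a GC-rich element bound by SMAD1 and SMAD5, which reads the same on both strands. The BMP4 stretch is chr14:53955051-53955300 (minus strand, upstream of the first of 3 listed starts and within an intron of longer BMP4 transcripts), that of MSX1 is chr4:4859415-4859664 (plus strand, between genes), that of MSX2 is chr5:174724332-174724532 (plus strand) and that of ATOH8 is chr2:85753741-85753893 (plus strand, within the annotated span of ATOH8).
BMP4: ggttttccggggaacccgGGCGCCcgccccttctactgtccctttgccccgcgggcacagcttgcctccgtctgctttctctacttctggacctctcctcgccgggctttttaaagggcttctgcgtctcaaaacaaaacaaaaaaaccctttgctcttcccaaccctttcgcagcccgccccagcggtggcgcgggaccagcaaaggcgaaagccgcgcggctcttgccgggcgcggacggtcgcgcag
MSX1: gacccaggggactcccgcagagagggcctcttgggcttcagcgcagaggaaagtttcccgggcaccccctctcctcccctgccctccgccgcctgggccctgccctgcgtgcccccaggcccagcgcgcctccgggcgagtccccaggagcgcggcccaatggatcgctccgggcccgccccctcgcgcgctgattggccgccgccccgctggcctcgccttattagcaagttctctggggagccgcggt
MSX2: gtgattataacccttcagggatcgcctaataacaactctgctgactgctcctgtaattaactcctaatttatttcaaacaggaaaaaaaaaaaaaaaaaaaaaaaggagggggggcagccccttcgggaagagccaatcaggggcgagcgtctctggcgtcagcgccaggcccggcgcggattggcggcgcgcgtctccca
ATOH8: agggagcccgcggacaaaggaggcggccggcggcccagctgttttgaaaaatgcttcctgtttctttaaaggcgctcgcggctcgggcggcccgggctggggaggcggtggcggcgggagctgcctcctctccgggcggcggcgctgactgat

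Within the full 250 bases, GGCGCC occurred once upstream of the first BMP4 start, at positions -232 to -227, and at 2 places upstream of the first GREM1 start. It was not in the windows of the other listed starts of these 2 genes. It was found for 2 of these 6 genes, against 19.0% of 27305 genes in the same table. Counted by start, 2 of 9 windows held it, against 16.4% of 35116. The letters GGCGCC were not in the windows of MSX1, MSX2, ATOH8 or BMP8B. The longer composite element that joins a GC-rich SMAD1 site to a SMAD4 site was found upstream of none of the 6, against 0.754% of all genes. These matches describe the letters in a short window and say nothing of binding.

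Of the 9 genes, 8 had a mean of at least 10 normalized counts and entered a fit across all genes (limma with Benjamini-Hochberg adjustment, threshold 0.05). In that fit 5 were past the threshold and higher in shLTBP1 (BMP2, BMP4, MSX1, MSX2 and ATOH8), 1 was past it and lower (BMP8B), and 2 were not past it (BMP7 and NOG). Over all 12789 genes tested the corresponding shares were 26.3% higher and 26.8% lower, or 53.1% in either direction. The 3 values of one group lay wholly above those of the other for 6 of the 8 genes, and for 60.8% of all genes tested. BMP2, BMP4, MSX1 and ATOH8 were at least 4-fold higher and past the threshold, as were 1.26% of all genes tested. Since this contrast chose the genes, these counts are not read further. In bulk RNA, a change in the share of cells that express a gene cannot be told apart from a change in RNA per cell.

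**Figure D1:**
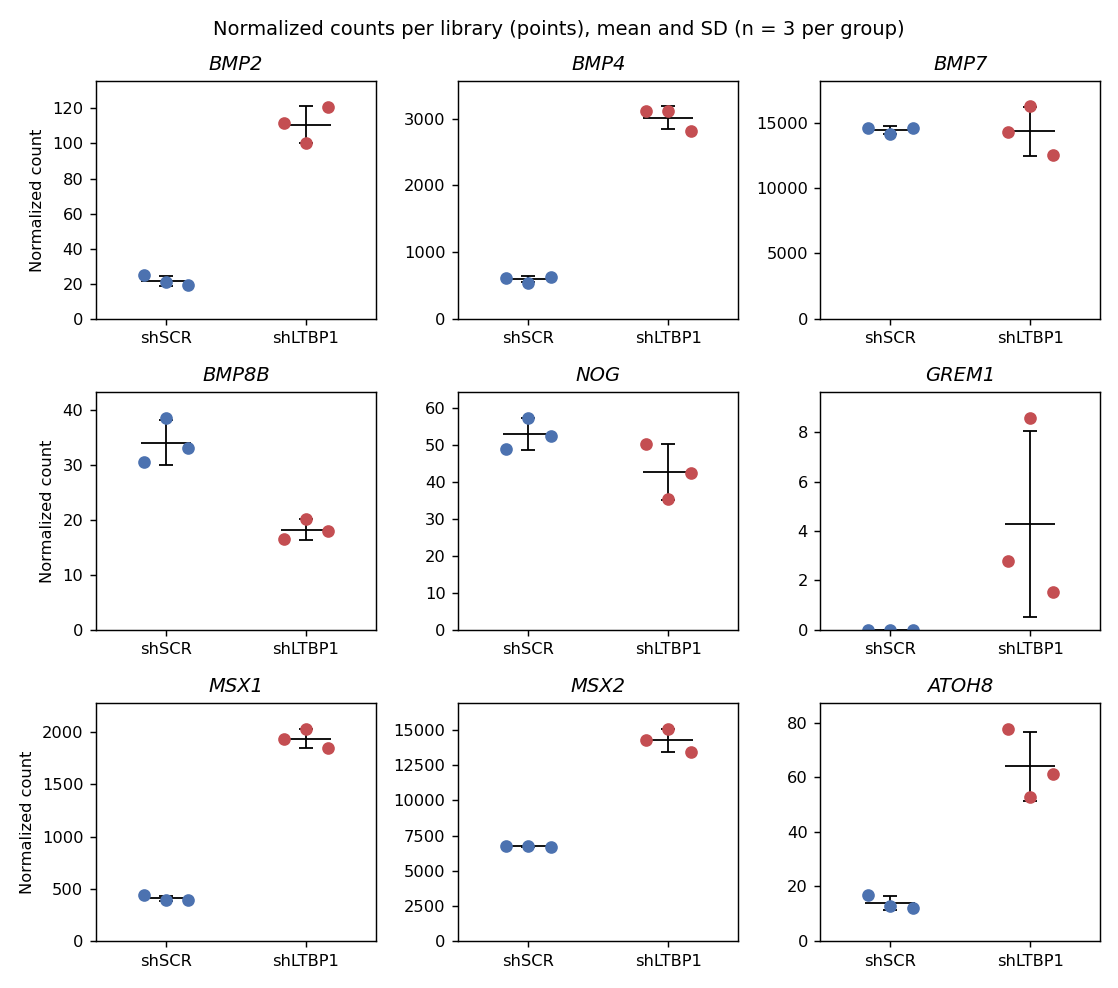
Normalized count of each of the 9 genes (y axis, from 0, its own scale in each panel) in the 3 shSCR (blue) and 3 shLTBP1 (red) libraries; horizontal bars are group means and vertical bars SD. The groups are apart for BMP2, BMP4, BMP8B, MSX1, MSX2 and ATOH8 and overlap for BMP7 and NOG, and GREM1 is listed at 0 in all shSCR libraries.

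Among the ligands, BMP4, a ligand that the mesenchyme of the gut is known to make, stood at 616, 539 and 629 normalized counts in shSCR and at 3112, 3111 and 2821 in shLTBP1. All 3 shLTBP1 libraries were above all 3 controls, and the lowest of them was more than 4 times the highest control. The means were 595 ± 48.7 and 3015 ± 167 (SD, n = 3 each), a ratio of 5.07 and a log2 fold change of 2.34 (SE 0.07) on the log2(value + 1) scale, which is used for all fold changes here. BMP4 (ENSG00000125378) lies on the minus strand of chromosome 14 from 53949736 to 53958761 in hg38, and the median log2 fold change of the 25 tested genes on each side of it was -0.06.

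BMP2, the closest relative of BMP4 and an osteogenic ligand, was expressed at a far lower level and differed by a like factor. Its values were 24.9, 20.7 and 19.3 in shSCR and 111, 100.1 and 121 in shLTBP1. The groups did not overlap, with means of 21.6 ± 2.90 and 110.8 ± 10.4 (SD, n = 3 each) and a ratio of 5.12. Its log2 fold change was 2.31 (SE 0.20). BMP2 (ENSG00000125845, plus strand of chromosome 20, 6767664 to 6780280) has a neighbouring median of 0.12, and its log2 fold change was 2.19 with that median subtracted. Per kilobase of longest transcript the level of BMP4 was 52.2 ± 7.93 times that of BMP2 in shSCR and 51.6 ± 7.29 times in shLTBP1 (SD, n = 3 each), so the ratio of the pair differed between groups by less than its spread within a group.

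BMP7, a ligand needed for kidney and eye development, was the highest of the ligands and showed no difference of that kind. It stood at 14591, 14120.4 and 14625 in shSCR and at 14260.0, 16247 and 12525 in shLTBP1. The shLTBP1 values lay on both sides of the controls, whose 3 values were close to each other. Means were 14445.5 ± 282 and 14344 ± 1862 (SD, n = 3 each), the coefficient of variation being 1.95% in shSCR and 13.0% in shLTBP1. The log2 fold change was -0.02 (SE 0.08), and between -0.11 and 0.08 over the alternative settings. BMP7 (ENSG00000101144) lies on the minus strand of chromosome 20 from 57168748 to 57266629, and an annotated antisense RNA, BMP7-AS1, overlaps it by 995 bases.

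BMP8B, a ligand known from germ cells and brown fat, was lower in shLTBP1. Its values were 30.6, 38.6 and 33.0 in shSCR and 16.5, 20.2 and 18.0 in shLTBP1. The groups did not overlap, and the mean went from 34.1 ± 4.11 to 18.2 ± 1.89 (SD, n = 3 each), a ratio of 0.535 with a log2 fold change of -0.86 (SE 0.26). This is the least firm of the differences. Its limma adjusted p, 0.0175 with all libraries, was 0.0648 without shSCR replicate 2 (log2 fold change -0.77) and 0.0514 without shLTBP1 replicate 1 (-0.80). The worth of 1 read, taken from the steps between low values, was 0.918 to 1.06 normalized counts per library, and in that unit BMP8B came to 32, 41 and 36 reads in shSCR and to 17, 20 and 17 reads in shLTBP1.

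BMP8B (ENSG00000116985, minus strand of chromosome 1, 39757182 to 39788861) has a close copy, BMP8A (ENSG00000183682, plus strand, 39491646 to 39525935), so the 2 are described together. The annotated transcripts, of 4822 and 1692 bases, aligned over 1653 bases with 95.2% identity. Of the stretches of 100 bases in BMP8A, 25.5% also occur in BMP8B. Of those in BMP8B, 8.6% also occur in BMP8A, so some reads can fit both. BMP8A was at 15.3, 11.3 and 11.0 in shSCR and at 8.72, 10.1 and 7.42 in shLTBP1. Its groups did not overlap either, but its log2 fold change of -0.47 (SE 0.39) did not pass (limma adjusted p = 0.335). In reads, all 6 values of BMP8A and all 6 of BMP8B were whole numbers within 0.1, whereas 35.5% to 37.7% of all low values in a library were. That share was counted over a range of values that does not reach those of BMP8B in shSCR. How reads common to both copies were divided is not given in the sources used here. PPIE, a protein-coding gene on the opposite strand, overlaps BMP8B by 6733 bases; its level was 1154 ± 53.5 in shSCR and 1231 ± 65.3 in shLTBP1 (SD, n = 3 each) and it did not pass (limma adjusted p = 0.252). OXCT2, a protein-coding gene on the same strand, overlaps BMP8B by 1826 bases and was listed at 0 in every library but shLTBP1 replicate 1 (0.970). The strand setting of the counting is not given in the sources used here.

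The regions upstream of the 2 copies, chr1:39788866-39789115 for BMP8B (minus strand) and chr1:39491386-39491635 for BMP8A (plus strand), were also aligned. In these regions 207 of 237 aligned bases were identical (87.3%). These windows were aligned over their whole length and the transcripts only over their best-matching part. The 87.3% and the 95.2% of the transcripts are therefore not like measures and are not compared. Capitals mark the bases that differ or have no partner in the alignment, 43 in each. Of the BMP8B window, 140 bases lie in exons of the neighbouring RNA gene AL033527.3.
BMP8B: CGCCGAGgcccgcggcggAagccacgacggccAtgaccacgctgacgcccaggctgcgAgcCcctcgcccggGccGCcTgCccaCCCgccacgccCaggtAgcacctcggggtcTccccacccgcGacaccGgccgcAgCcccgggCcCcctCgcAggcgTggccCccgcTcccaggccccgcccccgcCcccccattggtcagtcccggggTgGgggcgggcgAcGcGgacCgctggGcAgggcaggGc
BMP8A: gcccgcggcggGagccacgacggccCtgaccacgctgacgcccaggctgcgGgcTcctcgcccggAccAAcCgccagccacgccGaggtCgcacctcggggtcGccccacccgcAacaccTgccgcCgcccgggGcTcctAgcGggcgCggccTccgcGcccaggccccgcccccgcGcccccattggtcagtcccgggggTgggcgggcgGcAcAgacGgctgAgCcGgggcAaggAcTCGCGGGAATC

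Set side by side per kilobase of longest transcript, the 4 ligands made up different shares of their summed RNA in the 2 groups. The share of BMP7 was 91.6%, 92.3% and 91.5% in shSCR and 68.2%, 71.0% and 67.4% in shLTBP1. BMP4 was 8.10%, 7.37% and 8.24% in shSCR and 31.2%, 28.5% and 31.8% in shLTBP1. BMP2 made up 0.153% ± 0.0199 and 0.602% ± 0.119, and BMP8B 0.181% ± 0.0262 and 0.0733% ± 0.00756 (SD, n = 3 each). The level of BMP7 was 11.6 ± 0.761 times that of BMP4 in shSCR and 2.27 ± 0.199 times in shLTBP1. The summed level per kilobase was 3971, 3814 and 3985 in shSCR and 5211, 5703 and 4630.19 in shLTBP1, a mean 32.1% higher. These shares depend on the length used. With the mean length of annotated transcripts, BMP7 held 95.6% ± 0.252 and 81.1% ± 1.32, BMP4 held 4.28% ± 0.260 and 18.7% ± 1.28, and the mean sum was 16.9% higher.

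**Figure D2:**
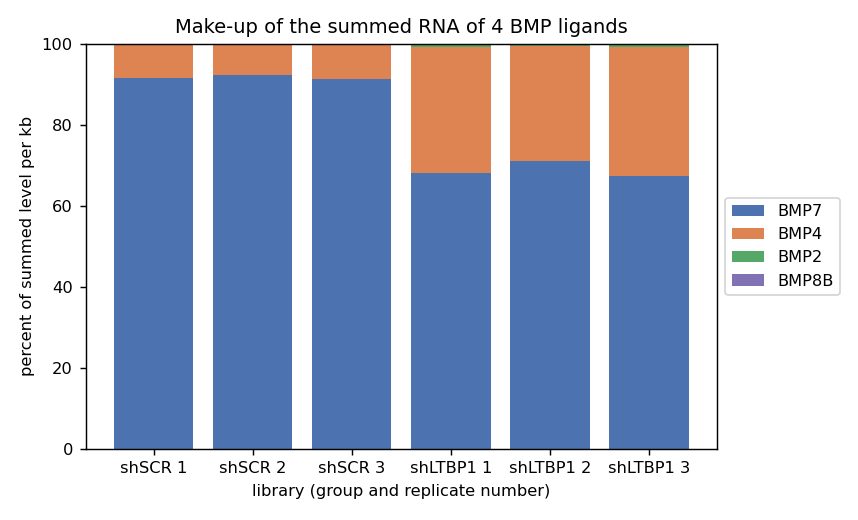
Share of each ligand (y axis, percent) in the summed level per kilobase of longest transcript of BMP7, BMP4, BMP2 and BMP8B, 1 bar per library. BMP7 takes 91.5% to 92.3% of the bar in shSCR and 67.4% to 71.0% in shLTBP1, and nearly all of the rest is BMP4.

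Of the antagonists, NOG did not differ beyond its spread. Its values were 48.8, 57.4 and 52.4 in shSCR and 50.4, 35.3 and 42.3 in shLTBP1. The highest shLTBP1 library lay within the control range and the other 2 below it. The means were 52.9 ± 4.33 and 42.7 ± 7.56 (SD, n = 3 each), with a log2 fold change of -0.31 (SE 0.21). NOG (ENSG00000183691) is a gene with 1 annotated transcript on the plus strand of chromosome 17 from 56593699 to 56595590. Per kilobase, BMP4 stood at 11.2 ± 1.70 times the level of NOG in shSCR and at 71.2 ± 13.8 times in shLTBP1, and the 2 ranges did not overlap.

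GREM1 was at the edge of detection. It was listed at 0 in all 3 shSCR libraries and at 2.78, 8.59 and 1.52 in shLTBP1. Every shLTBP1 library was above the controls, but the mean over all libraries, 2.15, was under the minimum of 10. The gene was therefore not in the main fit, and no fold change is given against a group listed at 0. With no filter on the mean, GREM1 was past the threshold and higher (limma adjusted p = 0.00854), on values of at most 8.59. None of the 3 values above 0 was a whole number of reads within 0.1, and an antisense RNA gene, AC090877.2, overlaps GREM1 by 1034 bases. GREM1 (ENSG00000166923) lies on the plus strand of chromosome 15 from 32717974 to 32745107.

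Of the homeobox targets, MSX1, a homeobox repressor that keeps progenitor cells undifferentiated, had the larger relative difference. Its values were 437, 389 and 395 in shSCR and 1934, 2034 and 1853 in shLTBP1. The groups were far apart relative to their spread, with means of 407 ± 25.9 and 1940.1 ± 90.9 (SD, n = 3 each), a ratio of 4.77 and a log2 fold change of 2.25 (SE 0.07). MSX1 (ENSG00000163132) lies on the plus strand of chromosome 4 from 4859666 to 4863936.

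MSX2, its paralogue, had the higher level of the pair per kilobase in both groups and the smaller relative difference. It stood at 6725, 6742 and 6695 in shSCR and at 14264, 15098 and 13454 in shLTBP1. The controls were nearly equal, with a coefficient of variation of 0.354%, and every shLTBP1 library lay far above them. The means were 6720.3 ± 23.8 and 14272 ± 822 (SD, n = 3 each), a ratio of 2.12 with a log2 fold change of 1.08 (SE 0.05). MSX2 (ENSG00000120149) lies on the plus strand of chromosome 5 from 174724533 to 174730893. The level of MSX2 per kilobase was 14.3 ± 0.882 times that of MSX1 in shSCR and 6.36 ± 0.0716 times in shLTBP1.

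ATOH8, a basic helix-loop-helix factor that responds to BMP signalling in endothelium and liver, was low in both groups. Its values were 16.9, 12.7 and 12.2 in shSCR and 77.8, 52.8 and 61.4 in shLTBP1. The groups did not overlap, although values within a group varied by 18.6% in shSCR and 19.8% in shLTBP1 (coefficient of variation). The means were 13.9 ± 2.59 and 64.0 ± 12.7 (SD, n = 3 each), a ratio of 4.60 and a log2 fold change of 2.12 (SE 0.26). In reads, 1 of the 6 values of ATOH8 was a whole number within 0.1. ATOH8 (ENSG00000168874, plus strand, 85751344 to 85788066) lies on chromosome 2, where the 852 tested genes had a median log2 fold change of -0.56. The 25 tested genes on each side of ATOH8 had a median of -0.62, and with it subtracted the log2 fold change of ATOH8 was 2.74. For the other 7 genes of the fit, the neighbouring medians lay between -0.07 and 0.12.

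**Figure D3:**
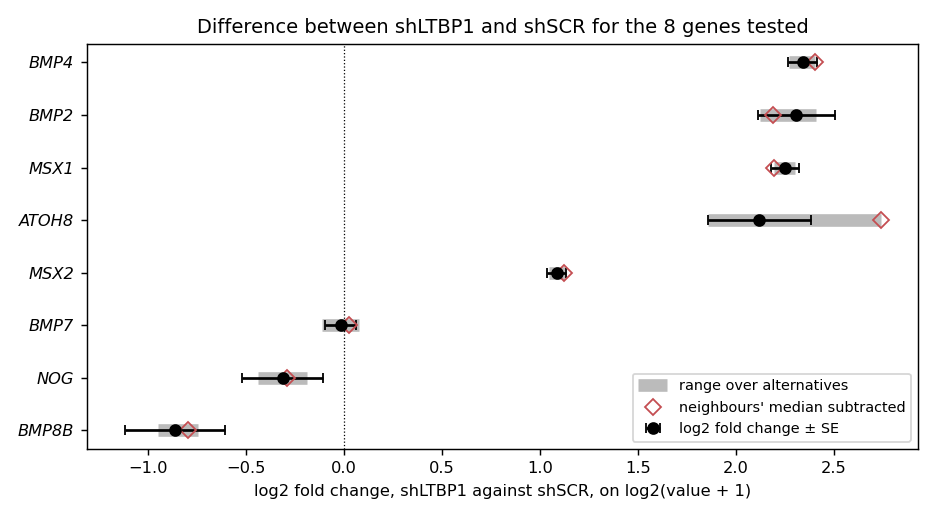
Log2 fold change of shLTBP1 against shSCR (x axis) for the 8 genes in the fit: black points with SE bars, grey bars for the range over the alternative settings, and open red diamonds for the value with the median of neighbouring genes subtracted. BMP4, BMP2, MSX1 and ATOH8 lie above 2, MSX2 at 1.08, BMP7 at -0.02, NOG at -0.31 and BMP8B at -0.86, and only ATOH8 moves far on subtraction, to 2.74.

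The levels per kilobase of longest transcript covered several orders of magnitude. In shSCR the order was BMP7 (3519 to 3644), MSX2 (2987 to 3008), BMP4 (281 to 328), MSX1 (201 to 225), NOG (25.8 to 30.4), BMP8B (6.35 to 8.01), BMP2 (5.35 to 6.91) and ATOH8 (3.93 to 5.45), with GREM1 listed at 0. The ranges of BMP8B and BMP2 overlapped, as did those of BMP2 and ATOH8; other neighbours in the order did not. In shLTBP1, MSX2 (6004 to 6737) stood above BMP7 (3121 to 4049), and BMP2 (27.8 to 33.5) above NOG (18.7 to 26.6). ATOH8 (17.0 to 25.1) overlapped NOG, and BMP8B (3.42 to 4.20) lay under both. With the mean transcript length, BMP7 was above MSX2 in both groups, and ATOH8 moved above BMP8B in shSCR and above BMP2 in shLTBP1, with overlapping ranges in each case.

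**Figure D4:**
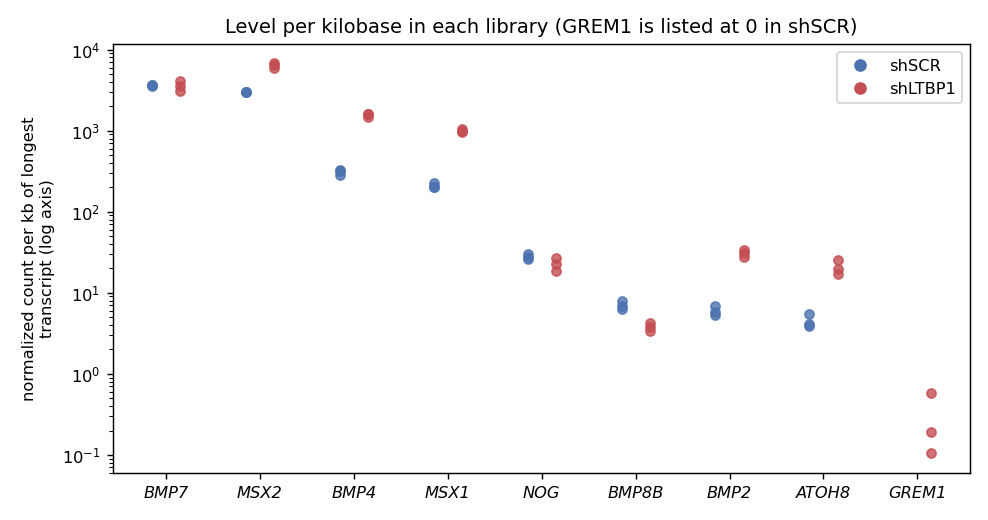
Normalized count per kilobase of longest transcript (y axis, log scale) of the 9 genes, 1 point per library, shSCR in blue and shLTBP1 in red, ordered by their level in shSCR. MSX2 and BMP7 lie above 2987 in every library and BMP8B, BMP2 and ATOH8 at 33.5 or less, and the shSCR points of GREM1 are missing because a value of 0 has no place on a log axis.

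The pattern over the 6 libraries was shared by many genes. For the 3 genes with the largest log2 fold changes, Pearson's r of log2 values with other genes of mean at least 100 was computed as a description, since 2 groups of 3 set most of it. BMP4 was most like SGK2 (0.99985), TGM3 (0.99946) and ABCG1 (0.9993), and 1397 of 10789 genes had an r above 0.95 with it. BMP2 was most like ATP8B1 (0.99942), NUDT19 (0.99877) and ACTBL2 (0.99872). MSX1 was most like KLF10 (0.99952), ERVW-1 (0.99939) and TMC6 (0.99939).

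Other genes of the BMP branch, and related ligands and extracellular modulators that need not act through it, are given for comparison. The lists were written with earlier results of these data known. Each count is to be read beside the 26.3% of all genes tested that rose and the 26.8% that fell. Of 17 further BMP and GDF ligands, 5 were tested: AMH and GDF15 rose, with log2 fold changes of 0.75 and 0.33 (limma adjusted p = 0.00073 and 0.00105), GDF11 fell by 0.31 on the log2 scale (0.00451), and BMP8A and GDF9 (-0.09) did not pass. With the neighbouring median subtracted, AMH, GDF15 and GDF11 were at 0.60, 0.17 and -0.34 and stayed past the threshold. BMP6, BMP10 and GDF2 were among 7 listed at 0 in every library. Of 18 further antagonists and extracellular modulators, 8 were tested; 7 rose and 1 fell, against 53.1% of all genes tested in either direction. Their median log2 fold change was 0.36, against 0.00 over all genes tested. Chordin (CHRD), which sequesters BMP2, BMP4 and BMP7, rose from 26.0 ± 14.0 to 157.6 ± 14.6 (SD, n = 3 each), and KCP, a chordin-like modulator, from 18.9 ± 7.54 to 54.7 ± 3.57. The log2 fold change of CHRD, on chromosome 3, was 2.69, and 2.13 with its neighbouring median of 0.56 subtracted. FSTL3, TSKU, NBL1, CRIM1 and TWSG1 rose by 0.53, 0.41, 0.31, 0.26 and 0.25 on the log2 scale, and CRIM1, on chromosome 2, was at 0.87 with the neighbouring median subtracted. BMPER fell by 1.26, a call lost without shSCR replicate 1, without shLTBP1 replicate 1 or with the neighbouring median subtracted (limma adjusted p = 0.0588, 0.0689 and 0.0823). Unlike these, NOG was not past the threshold in either direction; the difference between them was not tested.

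Among 5 tested proteases that cut BMP precursors or chordin, BMP1 (1.10), PCSK7 (0.51) and FURIN (0.24) rose and PCSK6 (-0.02) and TLL2 (0.18) did not pass. Of 9 tested BMP receptors and coreceptors, 6 fell, against 26.8% of all genes tested, and 3 did not pass (median -0.28). One of the 6 is the coreceptor ENG (-0.17), whose call was lost with quantile normalization, without a variance trend, and without any single library other than shLTBP1 replicate 1 (limma adjusted p = 0.0707 to 0.106 in those 5 cases). The type II receptors BMPR2, ACVR2A and ACVR2B had log2 fold changes of -0.93, -0.84 and -0.71. BMPR2 and ACVR2A, with the type I receptor ACVR1 (-0.74), lie on chromosome 2, and with the neighbouring median subtracted, a setting in which 49.2% of all genes passed, they were at -0.24, -0.16 and -0.21, the calls of BMPR2 and ACVR2A being lost (limma adjusted p = 0.079 and 0.199).

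Of 13 tested SMADs and SMAD regulators, 6 rose and 2 fell (median -0.03), a share near the 53.1% of all genes tested. Of the 6, LEMD3 (0.20) lost its call without shSCR replicate 2 or 3 or shLTBP1 replicate 1 or 3 (limma adjusted p = 0.122 to 0.156), without the filter and without a variance trend. PPM1A (0.19) lost its call without shSCR replicate 2 or shLTBP1 replicate 1 (0.0536 and 0.0556). SMAD9 and the inhibitor SMAD6 rose by 3.23 and 2.94 on the log2 scale and the effector SMAD1 by 0.99, while the ubiquitin ligase SMURF2 and the SMAD partner HIVEP2 fell by 0.99 and 0.88. The effector SMAD5 was at -0.38 and did not pass (limma adjusted p = 0.0539); it was past the threshold and lower with the replicate block (0.0107), with the neighbouring median subtracted (0.0337), without shSCR replicate 2 (0.0447) and without shLTBP1 replicate 1 (0.00711). Of 14 tested target genes other than MSX1, MSX2 and ATOH8, 12 rose, against 26.3% of all genes tested, RUNX2 fell by 0.61 and HEY1 (0.16) did not pass (median 1.32). SMAD6, SMAD7 and SMAD9 are also among the SMADs counted above, and DLX5 is also among the homeobox genes below. Among them SMAD9, SMAD6 and ID3 (2.90) rose most, and the 4 ID genes, the best known BMP targets, had log2 fold changes of 1.08 to 2.90. The lowest of the 4, ID2, lies on chromosome 2 and was at 1.58 with the neighbouring median subtracted. HES1, at 0.26, was at -0.24 with the neighbouring median subtracted (limma adjusted p = 0.00469). Of 8 tested homeobox relatives of the MSX genes, 6 rose, against the same 26.3%, and 2 did not pass (median 0.71). DLX4 (0.22) lost its call with the replicate block (limma adjusted p = 0.0517), with the neighbouring median subtracted (0.102), and without shSCR replicate 1 or 2 or shLTBP1 replicate 1 or 3 (0.0680 to 0.108). DLX3 rose from 377 ± 33.4 to 1617 ± 50.5 (SD, n = 3 each), a log2 fold change of 2.10 beside the 2.25 of MSX1. DLX5 and DLX2 rose by 1.05 and 0.83 on the log2 scale, and DLX2, on chromosome 2, was at 1.36 with the neighbouring median subtracted.

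**Figure D5:**
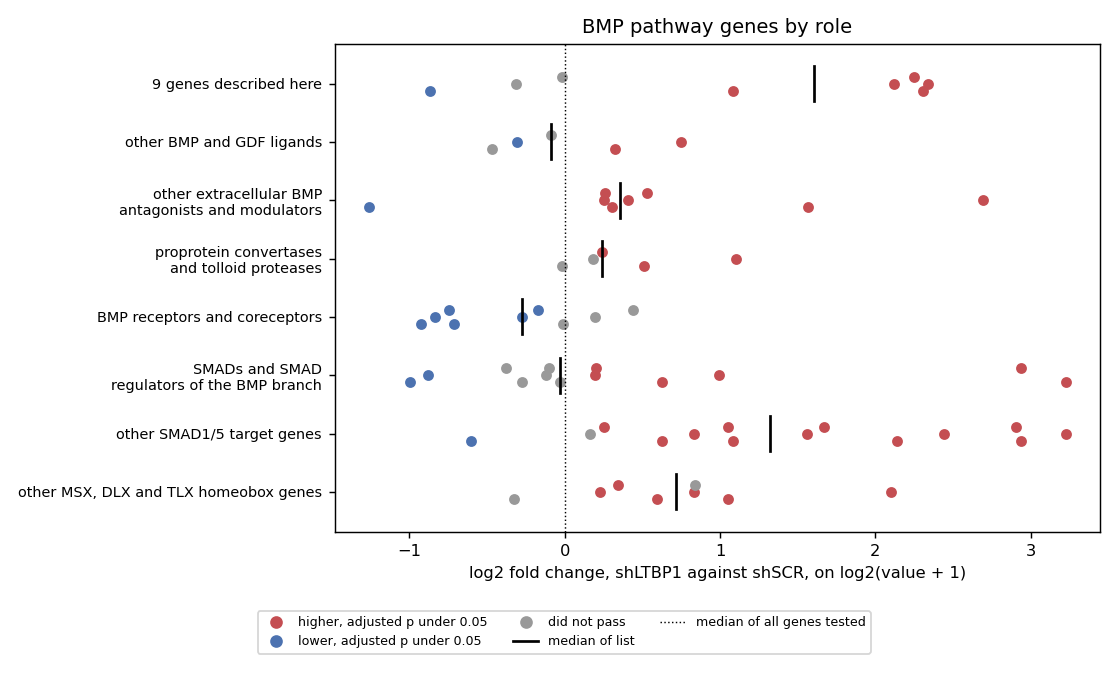
Log2 fold change of shLTBP1 against shSCR (x axis) for tested genes, 1 point per gene, grouped by role; red and blue points passed the threshold higher or lower, grey points did not, black bars are list medians and the dotted line is the median of all genes tested. In the list of other antagonists and modulators all but BMPER lie to the right, as do the other targets except RUNX2. In the homeobox list all but NKX6-1 (-0.33, which did not pass) lie to the right, and the receptors that passed lie to the left.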

How the data were processed

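RNA of 3 shSCR and 3 shLTBP1 libraries was sequenced after a directional preparation, per the labels; groups and replicate numbers come from the sample titles. The submitters' processing notes name hg38 as the build and STAR 2.7.3a, RSEM 1.3.1, FastQC 0.10.1 and DESeq2 as tools. They state no annotation, strand setting or filter. The table deposited by the authors holds a signal per gene, DESeq2-normalized counts with fractions, so no count test was run on it.

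For 12789 genes with a mean of at least 10 over all libraries, log2(value + 1) was fitted in R 4.3.3 by limma 3.58.1 with group as the only term and a mean-dependent variance trend (4 residual and 5.6 prior degrees of freedom), two-sided, adjusted by Benjamini-Hochberg at 0.05. The scale understates the change of low genes. The script was tested on simulated data. Positions and transcript lengths came from GENCODE release 29 (19872 genes matched), promoters from RefSeq GRCh38.p14, and alignments from Biopython 1.88. Alternatives were other pseudocounts, filters, scalings and variance moderation, the replicate number as a block, neighbouring medians subtracted, and each library left out.

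The members and lists were chosen with earlier results of these data known. Genes named by rule are LTBP1, the 9 members, BMP8A, and all tested other ligands, antagonists and modulators. By the same rule, each other list gives up to 3 genes past the threshold that rose most and up to 3 that fell most. The 3 genes most like each of 3 members are also named by rule. Other genes were named after their values were seen.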

Additional observations from a re-analysis of the deposited data

How the results depend on the processing

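The log2 fold changes of BMP2, BMP4, MSX1, MSX2 and ATOH8 kept their direction and stayed past the threshold in every alternative in which they were tested, and BMP7 and NOG stayed short of it. Low counts limit BMP8B, NOG, BMP2 and ATOH8, and GREM1 most. The count of the 9 genes past the threshold and higher was 6 with no filter, where GREM1 was also tested (limma adjusted p = 0.00854). It was 4 with a mean of at least 50, where ATOH8 was not tested. The count of the 9 genes past the threshold and lower was 0 with a mean of at least 50, where BMP8B was not tested, and 0 to 1 with each library left out. The count of other antagonists and modulators that fell was 0 with that filter, where BMPER was not tested, and with neighbouring medians subtracted. It was 0 to 1 with each library left out. It was 0 without shSCR replicate 1 or shLTBP1 replicate 1, and without shSCR replicate 3, where BMPER fell under the minimum mean and was not tested. The count of receptors that rose was 1 with the replicate block, and 0 to 1 with each library left out, the gene being BMPR1A without shLTBP1 replicate 2. With neighbouring medians subtracted, 5 SMADs and regulators and 2 of the other targets were lower. The causes were not tested. Over all genes, each library left out gave 2883 to 3215 genes higher and 2945 to 3317 lower. Same-numbered libraries of the groups do not deviate together: their correlations were -0.00925, 0.0584 and -0.00074, and not every library correlated best with its own number. The replicate block gave 3347 genes higher and 3408 lower, and it changed no call among the 9 genes.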
